A study of Homo sapiens with 6 samples.

Results

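The 45 genes described here are germ-cell and meiosis genes, chosen by symbol from a fixed list of names. The rule has no threshold on expression, but the list was drawn up with earlier results of these data known, so its shares beside those of all symbols are descriptions. All 45 were found among the 23617 gene symbols of the MDA-MB-231 table, and 8 were found among the 1854 symbols of the HMLER table. Each of the 45 genes is accounted for below.

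MDA-MB-231 was established from a human breast tumour, and HMLER comes from human mammary cells that were transformed in culture. Treated cells received decitabine (DAC, 5-aza-2'-deoxycytidine), a cytidine analog that traps DNA methyltransferases, at 10 µM each day and were collected 72 h after the first dose. Untreated cells received no drug. Polyadenylated RNA was sequenced from 6 libraries, with 2 treated and 2 untreated for HMLER and 1 of each for MDA-MB-231, and each library came from a pool of separate extractions. A label of the untreated MDA-MB-231 library carries another cell line number, while its title gives MDA-MB-231. Of 12 markers of breast epithelium and basal-like lines, 6 were on in that library, and the median log2 change after DAC was 0.07. More than 2-fold higher were 5 and lower were 2, where all symbols gave 22.8% and 5.36%. Of the 5, only KRT19 reached 1 FPKM. The epithelial keratins KRT8 (72.4 and 79.3 FPKM) and KRT18 (170.7 and 160.9 FPKM) were close between the libraries, while vimentin (VIM) stood at 3066 and 1134 FPKM, CD44 at 159.1 and 98.2, and KRT19 at 0.518 and 13.5. The estrogen receptor gene ESR1 stood at 0 and 0.01496 FPKM. KRT5 (0.0112 and 0 FPKM), KRT14 (0 and 0.0495), CDH1 (0 and 0.179) and PGR (0 and 0.0553) were also low in both libraries. EPCAM stood at 7.90 and 9.78 FPKM and ERBB2 at 10.1 and 10.7. HMLER listed 5 of the 12, against 7.85% of all symbols.

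FPKM is a count of sequenced fragments divided by transcript length and by library size. The MDA-MB-231 table gives 1 FPKM value per transcript and library, with the lower and upper bounds set by the software. The HMLER table gives 1 value per condition, merged over libraries, and lists only transcripts that were more than 2-fold higher after DAC (lowest ratio 2.001) and at 1 FPKM or more (lowest 1.003). A gene missing from that table was therefore not analysed here in HMLER and is not called silent there. No comparison below has a replicate check, and no p-value is given.

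Low FPKM values in MDA-MB-231 fell on whole multiples of a fixed step. All 651 low values examined in each library lay within 0.1 of a whole read, so the reads behind each gene could be counted. A read on a transcript with 1 kilobase of effective length was worth 0.0235 FPKM in the untreated library and 0.0236 FPKM after DAC, which corresponds to about 42600000 and 42400000 fragments. Ratios of reads carry exact 95% intervals that cover counting error only.

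Germ cells pass through meiosis, in which homologous chromosomes are cut, paired along the synaptonemal complex and recombined. They also protect their genome with PIWI proteins, which bind small RNAs called piRNAs and silence transposons together with Tudor-domain proteins. Many of these genes are silent in somatic cells, and the promoters of a subset are methylated there at CpG dinucleotides. Cancers can express some of them again, and such genes are then called cancer-testis or cancer-germline genes.

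Promoter sequences are given for DAZL and SYCP3, which had the highest levels after DAC, for TDRD12, which was turned on (from under 1 FPKM to 1 FPKM or more) in both cell lines, for GTSF1, whose promoter is poor in CpG, and for PIWIL1 and SYCP2, which stayed silent (under 0.1 FPKM in both MDA-MB-231 libraries) with CpG-rich promoters. Each run holds the 250 bases before an annotated start site, read 5′ to 3′ from RefSeq on GRCh38.p14, and capitals mark CpG dinucleotides. They lie at chr3:16605424-16605673 on the minus strand, chr12:101739463-101739712 on the minus strand, chr19:32719517-32719766 on the plus strand, chr12:54473603-54473852 on the minus strand, chr12:130337637-130337886 on the plus strand and chr20:59933638-59933887 on the minus strand.
DAZL: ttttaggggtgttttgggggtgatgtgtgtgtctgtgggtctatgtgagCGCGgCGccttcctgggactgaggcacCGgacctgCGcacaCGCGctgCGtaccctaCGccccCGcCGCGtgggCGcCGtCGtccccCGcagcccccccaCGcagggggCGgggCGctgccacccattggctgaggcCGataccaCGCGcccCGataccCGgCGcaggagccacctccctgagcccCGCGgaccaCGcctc
SYCP3: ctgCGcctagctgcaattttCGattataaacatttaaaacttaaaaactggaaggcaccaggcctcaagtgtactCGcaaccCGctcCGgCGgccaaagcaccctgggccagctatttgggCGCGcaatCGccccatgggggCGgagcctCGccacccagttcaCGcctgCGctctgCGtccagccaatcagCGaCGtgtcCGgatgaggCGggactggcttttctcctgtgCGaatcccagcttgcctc
TDRD12: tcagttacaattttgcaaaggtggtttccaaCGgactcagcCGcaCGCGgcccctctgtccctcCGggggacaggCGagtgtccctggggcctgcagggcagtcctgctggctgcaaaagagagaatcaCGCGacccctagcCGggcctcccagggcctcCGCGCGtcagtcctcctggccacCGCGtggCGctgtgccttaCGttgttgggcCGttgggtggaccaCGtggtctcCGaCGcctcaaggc
GTSF1: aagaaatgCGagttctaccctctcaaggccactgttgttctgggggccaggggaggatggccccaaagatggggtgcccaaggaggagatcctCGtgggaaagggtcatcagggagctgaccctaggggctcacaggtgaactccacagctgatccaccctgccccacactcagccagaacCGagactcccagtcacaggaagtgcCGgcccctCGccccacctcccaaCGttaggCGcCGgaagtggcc
PIWIL1: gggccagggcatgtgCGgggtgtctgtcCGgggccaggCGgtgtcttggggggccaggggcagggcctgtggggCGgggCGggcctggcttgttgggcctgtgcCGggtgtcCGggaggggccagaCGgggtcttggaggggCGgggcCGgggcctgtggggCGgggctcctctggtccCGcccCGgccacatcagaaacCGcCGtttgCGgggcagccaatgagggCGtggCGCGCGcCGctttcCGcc
SYCP2: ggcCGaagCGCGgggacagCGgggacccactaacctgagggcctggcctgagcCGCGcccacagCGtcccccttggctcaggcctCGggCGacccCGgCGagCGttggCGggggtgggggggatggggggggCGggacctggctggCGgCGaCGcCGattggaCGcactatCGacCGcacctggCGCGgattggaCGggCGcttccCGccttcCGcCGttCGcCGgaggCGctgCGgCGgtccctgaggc
The number of CpG in these 250 bases was 28 for DAZL, 19 for SYCP3, 20 for TDRD12 and 8 for GTSF1. It was 22 for PIWIL1 and 33 for SYCP2. The silent SYCP2 thus had more CpG in this window than any of the 4 turned-on genes shown. Among turned-on genes not shown, MAEL had 51 and TDRD9 had 35, which is more than SYCP2. SYCP2 was silent by level, with 0 and 16 reads.

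In untreated MDA-MB-231 cells these genes were almost wholly inactive. Of the 45 genes, 40 were under 0.1 FPKM, 44 were under 1 FPKM, and 25 had 0 inferred reads. The untreated library held 155 reads over the 45 genes, and the DAC-treated library held 10966. After DAC, 41 genes had more reads, 4 had 0 reads in both libraries, and 0 had fewer. DAZL alone gave 61.5% of the reads after DAC. In RNA from bulk cells, more expressing cells and more RNA per cell cannot be told apart.

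A gene was counted as turned on when it was under 1 FPKM untreated, at 1 FPKM or more after DAC and more than 2-fold higher. A gene with several transcripts was represented by the transcript whose FPKM, added over both libraries, was largest. Turned on were 11 of the 45 genes (24.4%), namely DAZL, SYCP3, GTSF1, MAEL, SOHLH2, TDRD12, STK31, TDRD9, HORMAD1, TEX11 and TDRD6. Among all symbols 3.89% were turned on, and among those under 1 FPKM untreated 7.47%. Of the 40 genes under 0.1 FPKM untreated, 10 (25%) were turned on, against 3.12% of all symbols that low.

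A further 17 genes were more than 2-fold higher and reached at least 0.1 FPKM but stayed under 1 FPKM, as did 7.89% of all symbols and 15.2% of those under 1 FPKM untreated. Silent genes, under 0.1 FPKM in both libraries, numbered 15 (33.3%), close to the 33.9% of all symbols. Among symbols under 1 FPKM untreated, however, 65.3% were silent in both libraries, and among those under 0.1 FPKM 81.2%, against 37.5% of the 40 genes of this list that were as low. The remaining genes were SYCE1L, already on in untreated cells, and SYCE2, which was low in both libraries.

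With no requirement on the level, 39 of 45 genes (86.7%) were more than 2-fold higher after DAC, against 22.8% of all symbols and 39.6% of those under 1 FPKM untreated. More than 2-fold lower were 0 of the 45, against 5.36% of all symbols. The median change of the 45 genes was 0.44 on the log2(FPKM + 1) scale, and that of all symbols was 0. Among symbols at 1 FPKM or more in both libraries the median DAC/untreated ratio was 0.908, a log2 shift of -0.14. Nearly all genes described here were lower than that before DAC, and among all symbols under 1 FPKM untreated 6075 were higher and 1187 lower after DAC, with a median change of 0.

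The software's FPKM bounds did not overlap between the libraries for 4 of the 45 genes, DAZL, GTSF1, TDRD6 and TEX15 (8.89%, against 0.576% of all symbols). By counting error in the reads, 30 of the 45 genes had a ratio interval above 1, against 26% of all symbols and 23.9% of those under 1 FPKM untreated. These 30 were the 11 turned-on genes, the 17 higher genes under 1 FPKM, SYCE1L and the silent gene SYCP2.

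**Figure D1:**
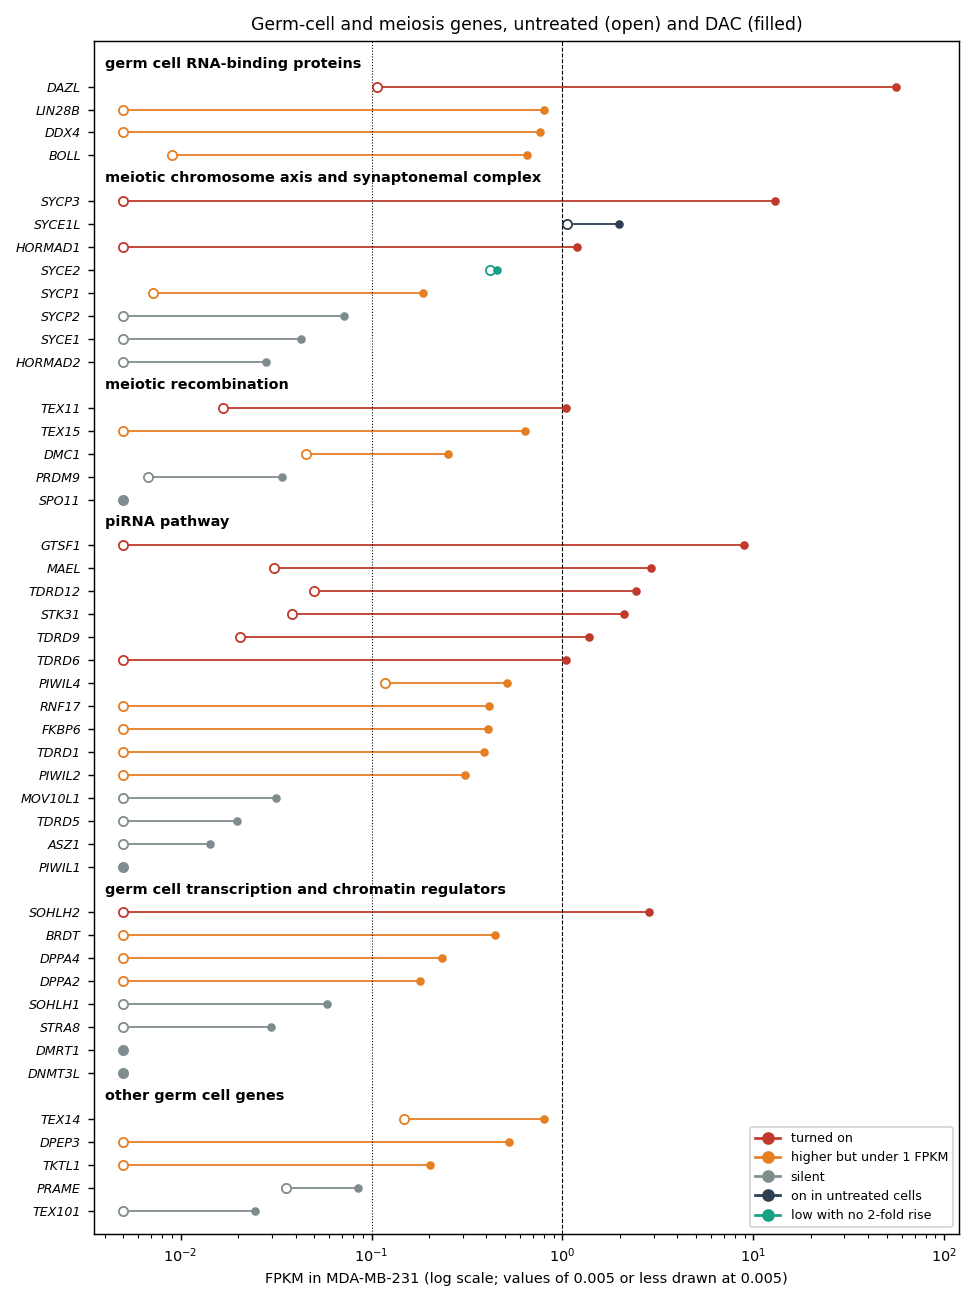
FPKM of the 45 genes in the untreated (open circles) and DAC-treated (filled circles) MDA-MB-231 library, 1 library each, on a log scale and grouped by role. Dotted and dashed lines mark 0.1 and 1 FPKM. DAZL, SYCP3 and GTSF1 lie farthest to the right after DAC, and SYCE1L is the only gene that begins to the right of 1 FPKM.

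The RNA-binding proteins of germ cells were DAZL, BOLL, DDX4 and LIN28B, and all 4 were higher after DAC. DAZL, which binds mRNAs of germ cells and promotes their translation, lies on chromosome 3 (hg19, 16628299 to 16711813, minus strand). It stood at 0.107 FPKM untreated (upper bound 0.308) and at 55.6 FPKM after DAC (bounds 30.6 to 80.6). Its reads went from 13 to 6747, a ratio of 522 (interval 305 to 981). DAZL ranked 22nd by level after DAC among the 918 symbols turned on in MDA-MB-231, and 1603rd among all symbols.

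The other RNA-binding genes stayed below DAZL by a wide margin. LIN28B, a repressor of let-7 microRNA maturation that is present in early germ cells, stood at 0 and 0.802 FPKM, with 0 and 180 reads, at least 60.4-fold higher when set against a floor of 3 reads. For every gene below with 0 untreated reads, "at least" refers to this floor. It leaves out counting error in the reads after DAC, and the exact lower limits of the ratio were smaller for each of these genes. They were 48.6 for LIN28B, 22.4 for HORMAD1 and 1.99 for DPPA2. DDX4, the Vasa helicase, stood at 0.767 FPKM after DAC, and its 4 transcripts summed to 0.0216 FPKM untreated and 0.925 FPKM after DAC. BOLL, of the same family as DAZL, stood at 0.00897 and 0.652 FPKM, with 1 and 71 reads (ratio 71.4, interval 12.4 to 2860). None of these 3 reached 1 FPKM, and DDX4 and LIN28B lay just under it.

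Of the 8 genes of the meiotic chromosome axis and the synaptonemal complex, 2 were turned on and 3 were silent. SYCP3, which builds the axis along which sister chromatids are held, is on chromosome 12 (102122426 to 102133250, minus strand). Its leading transcript stood at 0 FPKM untreated (upper bound 0.0509) and at 12.97 after DAC (bounds 0 to 27.7), and its 3 transcripts summed to 0.402 and 20.4 FPKM. Its reads numbered 16 and 798, a ratio of 50.2 (interval 30.7 to 88.2). The untreated reads of SYCP3 were assigned to a different transcript than those after DAC.

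SYCP3 shares its locus in the table with CHPT1, which stood at 70.4 FPKM untreated and 39.5 after DAC. Strand-aware counting is not stated, so reads from overlapping genes may be divided uncertainly between them. CHPT1 moved in the other direction from SYCP3.

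HORMAD1, an axis protein that recruits the recombination machinery and a known cancer-testis antigen, is on chromosome 1 (150670536 to 150693371, minus strand). It had 0 reads untreated and 84 after DAC, which is 1.19 FPKM (bounds 0 to 2.83). Against the floor of 3 reads it was at least 28.2-fold higher, and the exact lower limit was 22.4. It was just above the level that counts as on. SYCP1, the transverse filament that joins the axes of paired chromosomes, stood at 0.00714 and 0.187 FPKM, with 1 and 26 reads (ratio 26.2, interval 4.30 to 1072).

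SYCP3 thus far exceeded its partners, since SYCP2, which forms the axis together with SYCP3, was at 0 and 0.0716 FPKM with 0 and 16 reads. SYCE1 of the central element had 0 and 2 reads, and HORMAD2 likewise had 0 and 2. SYCE2, also of the central element, stood at 0.418 and 0.453 FPKM with 13 and 14 reads (ratio 1.08, interval 0.472 to 2.50). SYCE1L, a gene related to SYCE1, stood at 1.06 and 1.98 FPKM with 30 and 56 reads (ratio 1.88, interval 1.18 to 3.03). SYCE2 shares its locus with GCDH (19.6 and 16.3 FPKM) and SYCE1L with MON1B (19.998 and 19.7 FPKM), and both of these neighbours were active in untreated cells. The part of overlapping reads in the values of SYCE2 and SYCE1L was not tested.

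Meiotic recombination was represented by 5 genes, of which 1 was turned on, 2 were higher below 1 FPKM and 2 were silent. TEX11, a meiotic crossover protein encoded on the X chromosome (69748790 to 70128561, minus strand), stood at 0.0166 FPKM untreated and 1.05 FPKM after DAC, with 2 and 125 reads (ratio 62.9, interval 17.05 to 525). TEX15, needed for meiotic DNA repair and transposon silencing, stood at 0.00474 FPKM (upper bound 0.0164) and 0.639 FPKM (bounds 0.0244 to 1.25). The reads of TEX15 numbered 2 and 268 (ratio 135, interval 36.95 to 1119). TEX15 did not reach 1 FPKM, but its bounds were apart, which was not so for TEX11.

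The enzymes that start and complete strand exchange remained low. DMC1, the meiotic strand-exchange recombinase, stood at 0.0454 and 0.252 FPKM with 4 and 22 reads (ratio 5.53, interval 1.88 to 22.1). PRDM9, the histone methyltransferase that marks recombination hotspots, had 1 and 5 reads (ratio 5.03, interval 0.563 to 238). SPO11, the enzyme that makes the meiotic DNA breaks, was listed at 0 FPKM in both libraries.

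The piRNA pathway was the largest group, with 15 genes. Turned on were 6 (GTSF1, MAEL, TDRD12, STK31, TDRD9 and TDRD6), 5 were higher below 1 FPKM and 4 were silent. After DAC the 6 turned-on genes stood between 1.04 and 8.97 FPKM.

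GTSF1, a zinc finger protein that binds PIWI proteins, lies on chromosome 12 (54849734 to 54867386, minus strand). It had 0 reads untreated and 231 after DAC, which is 8.97 FPKM (bounds 0.165 to 17.8) and at least 77.5-fold higher. MAEL, a nuage protein needed for transposon silencing, is on chromosome 1 (166944819 to 166991451, plus strand). It stood at 0.0307 and 2.92 FPKM (bounds after DAC 0 to 6.10), with 2 and 189 reads (ratio 95.1, interval 25.96 to 791). MAEL and GTSF1 differ in that the bounds were apart for GTSF1 and overlapped for MAEL.

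Of the Tudor-domain genes turned on, TDRD12, on chromosome 19 (33210659 to 33320486, plus strand), stood at 0.0498 and 2.42 FPKM, with 3 and 145 reads (ratio 48.6, interval 16.3 to 239). TDRD9, a Tudor-domain helicase on chromosome 14 (104394793 to 104519004, plus strand), stood at 0.0206 and 1.38 FPKM, with 4 and 266 reads (ratio 66.9, interval 25.8 to 247). STK31, a protein with a Tudor and a kinase-like domain on chromosome 7 (23749822 to 23872132, plus strand), stood at 0.0383 and 2.10 FPKM, with 5 and 316 reads (ratio 63.6, interval 27.0 to 197). These 3 ratios had intervals that overlap one another.

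TDRD6, a scaffold of the chromatoid body of spermatids, is on chromosome 6 (46655612 to 46672056, plus strand). Its leading transcript stood at 2.54e-04 FPKM untreated and at 1.04 FPKM after DAC (bounds 0.205 to 1.88). Over both of its transcripts the reads numbered 8 and 388 (ratio 48.8, interval 24.5 to 114), as nearly all untreated reads were assigned to the other transcript. TDRD6 was the lowest of the 11 turned-on genes.

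The PIWI proteins themselves reached lower levels than these partners. PIWIL4 stood at 0.117 and 0.512 FPKM with 15 and 65 reads, a ratio of 4.36 (interval 2.46 to 8.23), the smallest among the genes of the pathway with 4 or more untreated reads. PIWIL2 stood at 0 and 0.310 FPKM with 0 and 45 reads, at least 15.1-fold higher. PIWIL1 was listed at 0 FPKM in both libraries. The genes turned on in this pathway thus did not include a PIWI gene in MDA-MB-231.

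The other genes of the pathway that were higher but under 1 FPKM were RNF17, FKBP6 and TDRD1. RNF17, a Tudor-domain RING finger protein, stood at 0.00238 and 0.414 FPKM with 1 and 86 reads (ratio 86.5, interval 15.1 to 3456). FKBP6, a co-chaperone for the loading of piRNAs, stood at 0 and 0.405 FPKM with 0 and 23 reads (at least 7.71-fold higher). TDRD1, which binds methylated PIWI proteins, stood at 0 and 0.389 FPKM with 0 and 71 reads (at least 23.8-fold higher). MOV10L1, the helicase that binds piRNA precursors, had 0 and 5 reads, TDRD5 0 and 4, and ASZ1 0 and 1, and all 3 were silent by level.

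**Figure D2:**
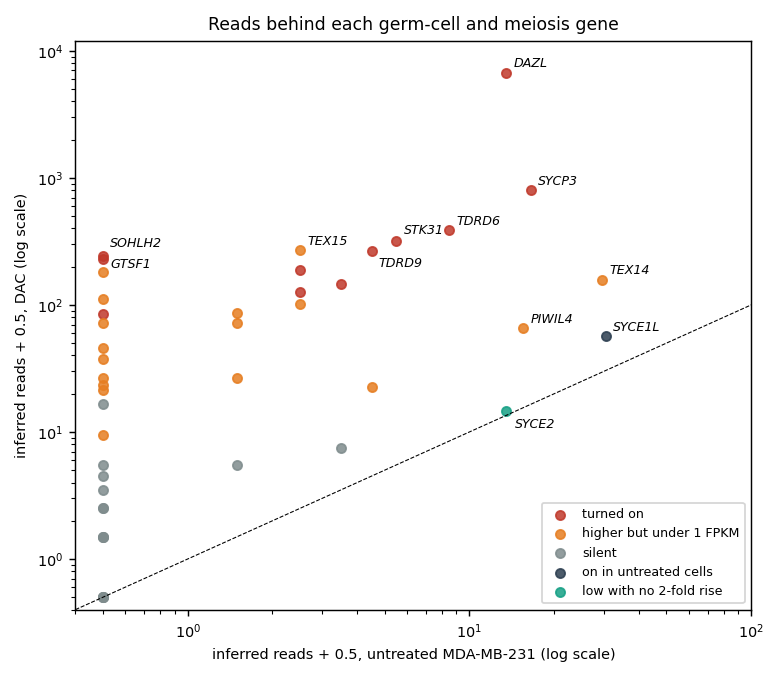
Reads inferred for each of the 45 genes, summed over its transcripts, in untreated (horizontal axis) and DAC-treated (vertical axis) MDA-MB-231 cells, 1 library each, with 0.5 added and both axes on a log scale. The dashed line marks equal reads, and no gene lies below it. DAZL went from 13 to 6747 reads, while SYCE2 at 13 and 14 reads lies on the line.

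Among 8 transcription and chromatin regulators of germ cells, SOHLH2 was the only gene turned on. SOHLH2, a basic helix-loop-helix factor of spermatogonia and oocytes, is on chromosome 13 (36742354 to 36788725, minus strand). It had 0 reads untreated and 240 after DAC, which is 2.85 FPKM (bounds 0 to 5.77). By the reads assigned to SOHLH2 alone it was at least 80.5-fold higher. Its locus in the table also holds CCDC169 (2.25 and 2.19 FPKM) and the read-through gene CCDC169-SOHLH2 (0.573 and 0.268 FPKM), of which neither was more than 2-fold higher. A read-through can share sequence with SOHLH2, so the 0 untreated reads and the fold of SOHLH2 depend on how shared reads were assigned. Counted with the read-through, the rise would be smaller.

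BRDT, the testis bromodomain protein that reads acetylated histones, stood at 0 and 0.442 FPKM, or 0 and 0.836 FPKM summed over its 7 transcripts, with 0 and 111 reads (at least 37.2-fold higher). DPPA4 and DPPA2, chromatin factors of pluripotent and germ cells that are neighbours on chromosome 3, stood at 0.235 and 0.180 FPKM after DAC and at 0 untreated. The reads of DPPA4 numbered 0 and 26 (at least 8.72-fold higher against the floor of 3 reads, exact lower limit 6.60). Those of DPPA2 numbered 0 and 9 (at least 3.02-fold against the floor, exact lower limit 1.99). The neighbouring genes thus moved in the same direction, at similar low levels.

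The other 4 regulators were silent by level. STRA8, which acts at the entry into meiosis, had 0 and 1 reads, and SOHLH1, a partner of SOHLH2, had 0 and 3. DMRT1, a factor of testis development and spermatogonia, and DNMT3L, the cofactor of DNA methylation in germ cells, were listed at 0 FPKM in both libraries. RING1 and EHMT2, chromatin regulators that most cells use, were also listed at 0 in both libraries, so a 0 in this table is not read as absence of expression. This holds too for SPO11 and PIWIL1.

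The last 5 genes have other or less settled roles. TEX14, a protein of the bridges between germ cells, stood at 0.148 and 0.805 FPKM with 29 and 157 reads (ratio 5.45, interval 3.65 to 8.40). DPEP3, a testis membrane dipeptidase, stood at 0 and 0.527 FPKM with 0 and 37 reads (at least 12.4-fold higher). TKTL1, an X-linked transketolase-like gene, stood at 0 and 0.202 FPKM with 0 and 21 reads (at least 7.04-fold higher). PRAME, a cancer-testis antigen active in many tumours, stood at 0.0356 and 0.0850 FPKM with 3 and 7 reads (ratio 2.35, interval 0.536 to 14.1), and TEX101, a surface protein of germ cells, had 0 and 1 reads. None of the 5 was turned on.

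Several genes lay close to the level of 1 FPKM after DAC. Just above it were TDRD6 at 1.04, TEX11 at 1.05 and HORMAD1 at 1.19 FPKM, and just below it were TEX14 at 0.805, LIN28B at 0.802 and DDX4 at 0.767 FPKM. Over the 11 turned-on genes the reads after DAC ranged from 84 to 6747 with a median of 240, and over the 17 genes higher but under 1 FPKM they ranged from 9 to 268 with a median of 65. The 15 silent genes had a median of 2 reads after DAC and at most 16, so counting error was large for them.

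In HMLER, 8 of the 45 genes (17.8%) were listed as higher after DAC, against 7.85% of all symbols of the MDA-MB-231 table. All 8 were turned on by the rule above, against 3.78% of all symbols and 48.1% of those listed in HMLER. Of the 8, 6 belong to the piRNA pathway (TDRD9, FKBP6, TDRD12, PIWIL2, PIWIL4 and TDRD1), and the other two are SOHLH2 and HORMAD1. The depth behind the HMLER values is unknown.

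TDRD9 had the highest level of the 8 in HMLER, at 0.194 FPKM untreated and 5.85 after DAC, a ratio of 30.2. FKBP6 stood at 0.502 and 4.31 FPKM, a ratio of 8.59, which was the smallest. TDRD12 stood at 0.0610 and 3.48 FPKM, a ratio of 57.0. The values after DAC in MDA-MB-231 were 1.38, 0.405 and 2.42 FPKM.

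PIWIL2, PIWIL4 and TDRD1 were listed in HMLER and stayed under 1 FPKM in MDA-MB-231. A listed gene had to reach 1 FPKM in HMLER and had no such condition in MDA-MB-231, and the tables were made separately, so no order of the lines is read from the levels. PIWIL2 stood at 0.305 and 3.43 FPKM (ratio 11.3) in HMLER, beside 0.310 FPKM after DAC in MDA-MB-231. PIWIL4 stood at 0.0933 and 1.70 FPKM (ratio 18.2), beside 0.512 FPKM. TDRD1 stood at 0.0172 and 1.64 FPKM (ratio 95.2), beside 0.389 FPKM. The difference between the lines was not tested.

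SOHLH2 stood at 0.109 and 3.003 FPKM in HMLER (ratio 27.5), beside 2.85 FPKM after DAC in MDA-MB-231. HORMAD1 was listed at 0 FPKM untreated and at 2.90 FPKM after DAC. The HORMAD1 transcript listed in HMLER differs from the one that leads in MDA-MB-231, whereas the same transcript led in both lines for the other 7 genes.

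Turned on in both cell lines were HORMAD1, TDRD12, TDRD9 and SOHLH2, 4 of the 45 genes (8.89%, against 0.8% of all symbols). Of the 11 genes turned on in MDA-MB-231, these 4 (36.4%) were listed in HMLER, close to the 31.9% of all symbols turned on in MDA-MB-231. Of the other 34 genes 4 (11.8%) were listed, against 6.87% of the symbols not turned on. In the other direction, all 8 genes listed in HMLER were more than 2-fold higher in MDA-MB-231, against 46% of all listed symbols. Of the 45 genes, listed or not, 86.7% were more than 2-fold higher there, so the 8 add little to that share. In MDA-MB-231 4 of the 8 were turned on, against 21.2% of all symbols turned on in HMLER. DAZL, SYCP3, GTSF1, MAEL, STK31, TEX11 and TDRD6 were turned on in MDA-MB-231 and were not analysed here in HMLER.

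**Figure D3:**
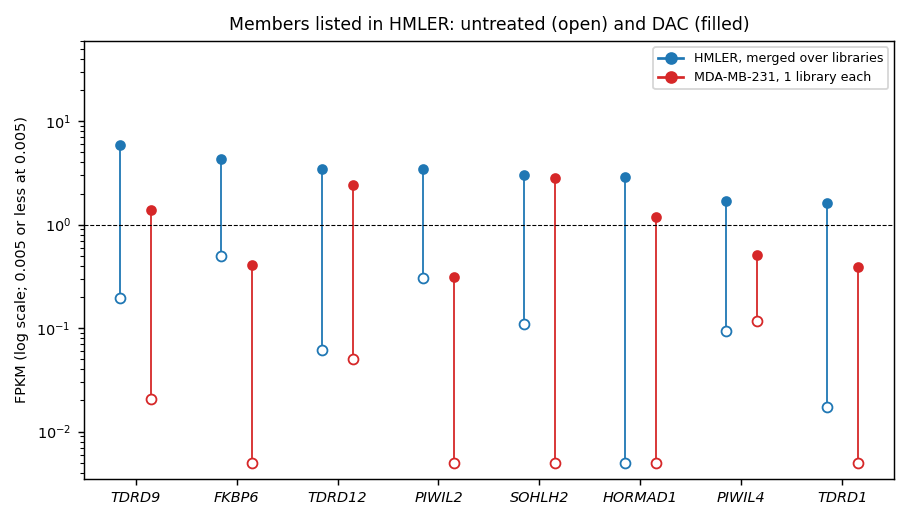
FPKM (log scale) of the 8 genes listed in HMLER, untreated (open) and after DAC (filled), in HMLER (blue, merged over 2 libraries per condition) and MDA-MB-231 (red, 1 library per condition). The dashed line marks 1 FPKM. All blue filled circles lie above 1 FPKM because the table lists no others, and 4 of the 8 red filled circles stay under it. SOHLH2 had similar levels after DAC (3.003 and 2.85 FPKM).

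The genes next to the 11 turned-on genes were examined to see whether whole neighbourhoods moved. Of the 22 nearest neighbours, 1 on each side and none sharing the locus, 8 were more than 2-fold higher, 1 was lower, and 1 was turned on, the neuropeptide gene NPY at a distance of 451676 bases from STK31 (0 and 3.91 FPKM). Of the 11 neighbours on in untreated cells, 9 stayed within 2-fold. RFTN1 and PLCL2, on either side of DAZL, stood at 57.7 and 58.1 and at 3.78 and 3.56 FPKM, and GOLPH3L, 862 bases from HORMAD1, at 6.48 and 3.93 FPKM. A share of 22.8% of all symbols was more than 2-fold higher, 5.36% lower and 3.89% turned on, so these counts are given as a description only. Neighbours of the silent genes were more than 2-fold higher in 12 of 30 cases, with 1 turned on. Those of the genes higher but under 1 FPKM were so in 11 of 34 cases, with 0 turned on. DPPA2 and DPPA4 are neighbours of each other and both count among these 11, which their own class fixed in advance. Rises beyond 2-fold were thus found beside genes of each class, counted with no requirement on the level. Many were between values under 0.1 FPKM, as for GPA33 beside MAEL (0.00906 and 0.0182 FPKM) and FAM163A beside TDRD5 (0 and 0.00873 FPKM). Whether the neighbourhoods of the classes differ was not tested.

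Promoter windows of 250 bases before and 50 after annotated start sites were matched by symbol for 39 of the 45 genes. HORMAD1, TEX15, PIWIL2, PIWIL4, DNMT3L and TEX14 had no entry. Where a gene had several windows, the one with the highest ratio of observed to expected CpG was used, for the 39 genes and for all symbols alike. The window lay within 1000 bases of the gene's outermost 5′ end for 27 of the 39 genes, and for DDX4 it was 28824 bases away. Silent genes with a window beyond 1000 bases were DMRT1, HORMAD2, SOHLH1, STRA8, SYCE1 and TEX101. Among turned-on genes this was so for TDRD6 only, so the windows of these classes are not placed alike. Windows were not tied to the start site of the transcript measured, which can lie elsewhere in the gene.

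The median CpG ratio was 0.790 over the 39 genes and 0.798 over the 14702 symbols of the MDA-MB-231 table that had a window. By class, the medians were 0.825 for the turned-on genes (0.771 for all turned-on symbols), 0.808 for the genes higher but under 1 FPKM (0.665 for all such symbols) and 0.773 for the silent genes. All silent symbols had a median of 0.320. A ratio of at least 0.6 was found in 12 of the 14 silent genes (85.7%), against 29.4% of all silent symbols, and in 9 of the 10 turned-on genes (90%), against 72.3% of all turned-on symbols.

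The CpG ratios of turned-on genes (0.349 to 1.12) and silent genes (0.481 to 1.05) of this list overlapped. The 1.12 is that of MAEL, whose window is not at the start of the transcript measured. GTSF1 was turned on with a ratio of 0.349, the only turned-on gene under 0.6, and its printed sequence shows few capitals. MOV10L1 was silent with a ratio of 1.05, and SYCP2 with 0.974. Among the genes higher but under 1 FPKM, DDX4, DPPA2 and DPPA4 had ratios of 0.120, 0.356 and 0.355, while FKBP6 had 1.19. The DDX4 window lay 28824 bases from the gene's outermost 5′ end, so its ratio may not describe the promoter of the RNA measured. DNA methylation of these promoters was not analysed here.

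**Figure D4:**
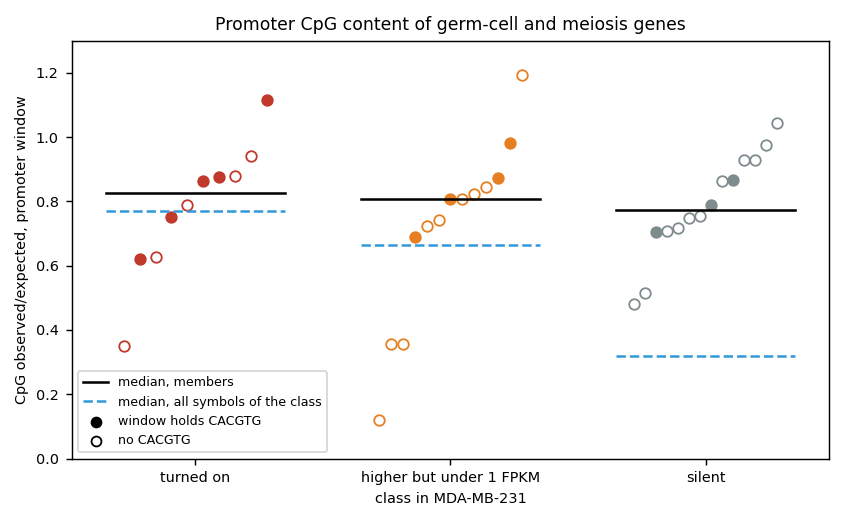
Ratio of observed to expected CpG (vertical axis, no unit) in the promoter window of 10 turned-on, 13 higher but under 1 FPKM, and 14 silent genes, with 1 circle per gene, filled where a window holds CACGTG. Black lines are the medians of these genes (0.825, 0.808 and 0.773), and blue dashed lines are the medians of all symbols of the class (0.771, 0.665 and 0.320).

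Short motifs were searched for on both strands in all windows of each gene. CACGTG, an E-box that reads the same on both strands, occurred in 13 of the 39 genes (33.3%), against 10.9% of the 14702 symbols and 8.77% of all 27305 symbols with a window. By class it was in 5 of 10 turned-on genes (DAZL, MAEL, TDRD12, SOHLH2 and STK31), 4 of 13 genes higher but under 1 FPKM, and 3 of 14 silent genes. Among all symbols of these classes the shares were 9.46%, 11.4% and 6.98%. In TDRD12 the match began 25 bases before the start site, within the printed sequence, and in DAZL it lay in a window other than the printed one.

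GCGGGAA or its reverse complement TTCCCGC, the core recognised by E2F factors, occurred in 10 of 39 genes (25.6%), against 10.4% of the 14702 symbols. It was in 6 of the 14 silent genes (42.9%, against 5.202% of all silent symbols) in 2 of 13 genes higher but under 1 FPKM (15.4%, against 8.02%) and in 1 of 10 turned-on genes (10%, against 12.5% of all turned-on symbols). TGACGTCA, the cyclic AMP response element, occurred in MOV10L1 alone (2.56%, against 2.99% of the 14702 symbols). None of these motifs contains another, all of them hold a CpG, and a match describes these windows only. The silent genes of this list had higher CpG ratios than all silent symbols, whose part in the motif counts was not tested.

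Other genes of the same pathways were examined from a list with no shared member. Of 37 further meiosis and piRNA genes 35 were found, of which 4 were turned on, 14 were more than 2-fold higher, 1 was lower and 11 were silent. Among all symbols these shares were 3.89%, 22.8%, 5.36% and 33.9%, and 39.6% of symbols under 1 FPKM untreated were more than 2-fold higher. The median log2 change of the 35 was 0.16. The 4 turned on, named after their values were seen, were HENMT1, C17orf104, ZCWPW1 and STAG3. HENMT1, the methyltransferase that protects the ends of piRNAs, stood at 7.31 FPKM after DAC, and its transcripts summed to 0.0314 and 11.9 FPKM with 2 and 809 reads. C17orf104 stood at 0.293 and 1.86 FPKM. In HMLER 6 of the 35 were listed, against 7.85% of all symbols, with HENMT1 at 0.203 and 3.28 FPKM.

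Of the 6 genes of this list that were on in untreated MDA-MB-231 cells, 0 were more than 2-fold higher, and 3 of them were listed in HMLER. Of the 5375 symbols more than 2-fold higher in MDA-MB-231, 4865 were under 1 FPKM untreated, so such a rise was uncommon among all genes already on. PSMC3IP, an accessory factor of strand exchange, stood at 20.4 and 31.2 FPKM in MDA-MB-231 and at 10.9 and 24.6 FPKM in HMLER. PLD6, a mitochondrial protein of piRNA biogenesis, stood at 9.48 and 12.7 FPKM in MDA-MB-231 and at 1.18 and 4.93 FPKM in HMLER. TDRKH, a Tudor-domain partner of PIWI proteins, stood at 4.46 and 6.49 FPKM in MDA-MB-231 and at 1.94 and 4.56 FPKM in HMLER. TDRD7, which was not analysed here in HMLER, stood at 8.66 and 6.97 FPKM.

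Of 30 genes of spermatids, which act after meiosis, 0 were turned on, 9 were more than 2-fold higher, 3 were lower and 21 were silent, where all symbols gave 3.89%, 22.8%, 5.36% and 33.9%. Their median log2 change was 0, and 12 were listed at 0 FPKM in both libraries. Only 4 of the 30 were on in untreated cells. Among symbols under 1 FPKM untreated, 7.47% were turned on, 39.6% were more than 2-fold higher and 65.3% were silent. HMLER listed 1 of the 30, the chaperone gene HSPA1L at 0.755 and 1.60 FPKM. Of 10 markers of somatic testis cells, 2 were turned on (INHBB from 0.986 FPKM, just under the level that counts as on, to 2.08, and CLDN11 at 2.60 FPKM after DAC), 5 were more than 2-fold higher, and 6 were silent, where all symbols gave 3.89%, 22.8% and 33.9%. The median log2 change of the 10 was 0.03, and 1 of the 10 was on in untreated cells, so the shares of low symbols apply here too. None of the 10 was listed in HMLER.

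Repressors known to act on germ cell genes were mostly active in both libraries. Of 23 repressors 22 were found, and 19 were on in untreated cells, where 12283 of all 23617 symbols were under 1 FPKM. More than 2-fold higher were 3, against 22.8% of all symbols, and more than 2-fold lower were 0, against 5.36%. HMLER listed none, against 7.85% of all symbols. Changes of less than 2-fold went both ways, as for TRIM28 (314.9 and 170.6 FPKM) and HELLS (24.4 and 35.4 FPKM), also named after their values were seen. The other genes found include RING1 and EHMT2, listed at 0 FPKM in both libraries. The median log2 change of the 22 was -0.02. The 3 higher were E2F6, DNMT3A and DNMT3B, named after their values were seen. E2F6 counted as turned on by its leading transcript (0.217 and 2.37 FPKM), but its transcripts summed to 3.99 and 4.55 FPKM. DNMT3B summed to 4.96 and 8.08 FPKM, and DNMT3A to 5.81 and 7.84 FPKM, so neither sum was more than 2-fold higher.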

How the data were processed

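RNA-seq of HMLER and MDA-MB-231 cells, with and without DAC, was analysed. The authors used TopHat2 for alignment to hg19 and Cuffdiff for FPKM values of RefSeq transcripts, whose versions and library scaling are not given in the sources used here. The deposited FPKM values were used as they stand. The authors' fold changes, test statistics, p-values, q-values and significance calls were not used. Samples were grouped by title, except that HMLER values are merged per condition.

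The members, gene lists and tests were chosen with earlier results of these data known. Ratios were computed without a pseudocount and log2 changes with a pseudocount of 1 FPKM, which understates changes of low genes. The level of 1 FPKM stands in for the authors' filter on library-scaled reads. Reads were inferred from the FPKM step and an effective length of the transcript length minus 205 bases. The fragment totals hold only if FPKM was scaled by each library's own total. Inferred reads were summed over transcripts and rounded. In the untreated library 43 of 45 sums lay within 0.1 of a whole number. Ratio intervals are exact conditional binomial (95%). No count test was run, as each condition has 1 value. The read step was tested on simulated data.

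Values are printed for members turned on, higher, lower or on untreated, or listed in HMLER, and silent members are named. From other lists, at most 5 genes turned on or listed in HMLER are named by DAC level, and exceptions are stated. Gene positions come from GENCODE lifted to GRCh37 (all 45 found), and promoters from RefSeq (GRCh38.p14). No coordinates were converted. Alternatives were other levels, thresholds, transcript choices, scaling, bounds and pseudocount. Computation used scipy 1.17.1, pandas 2.3.3, numpy 2.4.6 and matplotlib 3.10.9 under Python 3.11.15.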

Additional observations from a re-analysis of the deposited data

How the results depend on the processing

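The number of genes turned on in MDA-MB-231 moved from 11 to 18 with 0.5 FPKM as the level, to 3 with 5 FPKM (DAZL, GTSF1 and SYCP3) and to 3 when bounds had to be apart (DAZL, GTSF1 and TDRD6). The same 11 genes were called with a 4-fold threshold, summed transcripts, any transcript, division by the median ratio, and only transcripts with status OK. Turned on in HMLER were 1 gene at 5 FPKM in place of 8, and turned on in both lines 0 at 5 FPKM and 0 with bounds apart, in place of 4. Silent genes numbered 4 when 0 FPKM was required in both libraries and 26 when 0.5 FPKM was allowed, in place of 15. Genes more than 2-fold higher numbered 4 with bounds apart and 11 with at least 1 FPKM in a library, in place of 39. These settings change the level or bound required and so the genes that can pass. The median log2 change was 1.74 with a pseudocount of 0.1 and 1.64 among genes at 1 FPKM or more in a library, in place of 0.44.

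No paired analysis was possible because each table holds 1 value per condition, and for the same reason no library was left out. MDA-MB-231 rests on 1 library per condition, HMLER on merged values of transcripts already selected as higher, so genes lower or unaltered in HMLER were not analysed here. SYCP3, SYCE2, SYCE1L, SOHLH2 and SPO11 share a locus with an active gene, and their reads are uncertain. For genes with 3 reads or fewer, 35 of the 45 in untreated MDA-MB-231, ratios are imprecise.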
